A study of Homo sapiens with 6 samples.

Results

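The genes described here are NFE2L2, KEAP1, TXNRD1, TXN, SRXN1, GCLC, GCLM, NQO1 and HMOX1, the regulators NRF2 and KEAP1 with 7 antioxidant and detoxifying proteins. They were chosen by name, and all 9 were found among the 26485 gene rows of the table. RNA sequencing compared 3 libraries of H9 cells treated with PA4, a berbamine derivative known by its code name, at 1 µM for 24 h with 3 libraries of H9 cells given the vehicle DMSO (control). H9 is an established human cell line that the labels describe as a cutaneous T lymphocyte line, and all 6 libraries share that line and culture medium. The study asked how the expression profile differs under a treatment that the submitters connect with cell death. Nothing in the labels says that the replicates of a group were separate cultures, and every p-value below therefore describes the spread among these libraries, part or all of which may be technical.

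NRF2, the product of NFE2L2, is a transcription factor that the adaptor KEAP1 normally delivers to a ubiquitin ligase for destruction. When electrophiles or oxidants modify KEAP1, NRF2 escapes, enters the nucleus with a small MAF partner and binds antioxidant response elements of its target genes. Those targets supply reduced thioredoxin and glutathione, the thiol buffers that lymphocytes use against peroxides, and enzymes that remove quinones and heme.

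Library totals were 18282212 to 22875191 counts with PA4 and 19033853 to 19260434 counts in control. All 9 genes passed the filter on low counts, which kept 12107 genes in the test, and together they took 25014 to 32665 counts per library. By edgeR's quasi-likelihood test, 26 genes were called higher and 2 lower under PA4, a call meaning a Benjamini-Hochberg adjusted p under 0.05. T cell markers were plentiful, with 10 of 13 having a mean of 10 counts or more. Their summed levels were 995 to 1045 CPM (counts scaled to library size) with PA4 and 1011 to 1075 CPM in control. However, CD2 had at most 1 count in a library, CD8A at most 5 and CD4 at most 12. Of 25 markers of B, myeloid, natural killer, epithelial and fibroblast cells, 7 were at 0 in all libraries, namely CSF1R, MPO, NCR1, KRT19, COL1A2, COL3A1 and DCN. The B cell markers CD79A and CD79B were detected, at 178 to 260 and 151 to 227 counts per library. So was the natural killer marker NKG7, at 166 to 231 counts and -0.21 ± 0.10 log2 (SE), not called. The fibroblast marker COL1A1 had 12 to 26 counts per library and was at 0.33 ± 0.30 log2 (SE), not called. The epithelial list, mostly EPCAM, summed to 140 to 142 CPM with PA4 and 133 to 137 CPM in control, with the groups of EPCAM apart and those of CDH1, which was at -0.17 ± 0.11 log2 (SE) and not called, overlapping. Their part in the results below was not tested.

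TXNRD1 was higher with PA4 and was the one member called. This gene encodes the cytosolic thioredoxin reductase, a selenoprotein that passes electrons from NADPH to thioredoxin and is a classic NRF2 target. Its level was 1.12-fold that of control, and the other 8 members were not called, with TXN, the thioredoxin it reduces, at 0.999-fold. The fitted values of GCLC, NQO1, SRXN1, KEAP1, NFE2L2 and GCLM lay between 1.02-fold and 1.09-fold, and that of HMOX1 at 0.948-fold with a wide interval.

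Short stretches of the gene starts are shown for the members with a match to the core of the antioxidant response element, because TXNRD1, the called gene, is one of them. The core was searched as TGACNNNGC on both strands, its reverse complement being GCNNNGTCA, in RefSeq windows (GRCh38.p14) of 250 bases before and 50 after each gene start. Of the 9 genes, 8 had a window in the table and 3 of these held a match, TXNRD1, GCLM and KEAP1. Matches stood in 4 of the 11 member windows, or 36.4%, against 13.3% of all 35116 windows and 14.7% of the 13022 windows of tested genes. Capitals mark the match, with 10 bases on each side, read in the direction of the gene.
TXNRD1, first start, chr12:104215670-104215698, plus strand: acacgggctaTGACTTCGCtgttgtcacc
TXNRD1, second start, chr12:104286920-104286948, plus strand: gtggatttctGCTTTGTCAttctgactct
GCLM, chr1:93909446-93909474, minus strand: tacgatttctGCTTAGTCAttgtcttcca
KEAP1, second start, chr19:10502784-10502812, minus strand: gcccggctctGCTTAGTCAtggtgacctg
GCLM and KEAP1 carried the same 9 letters, GCTTAGTCA, 34 and 31 bases before their starts. The TXNRD1 matches began 99 bases before its first start and 102 bases before its second. In GENCODE release 29 the stretch at the first TXNRD1 start lay upstream of the gene. Those of the second TXNRD1 start and of KEAP1 lay in annotated exons of these genes, and that of GCLM lay partly in an exon. A match is a description of letters, not evidence of binding, and counts per gene do not tell the starts apart. A further match of TXNRD1 and one of KEAP1 are not shown.

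**Figure D1:**
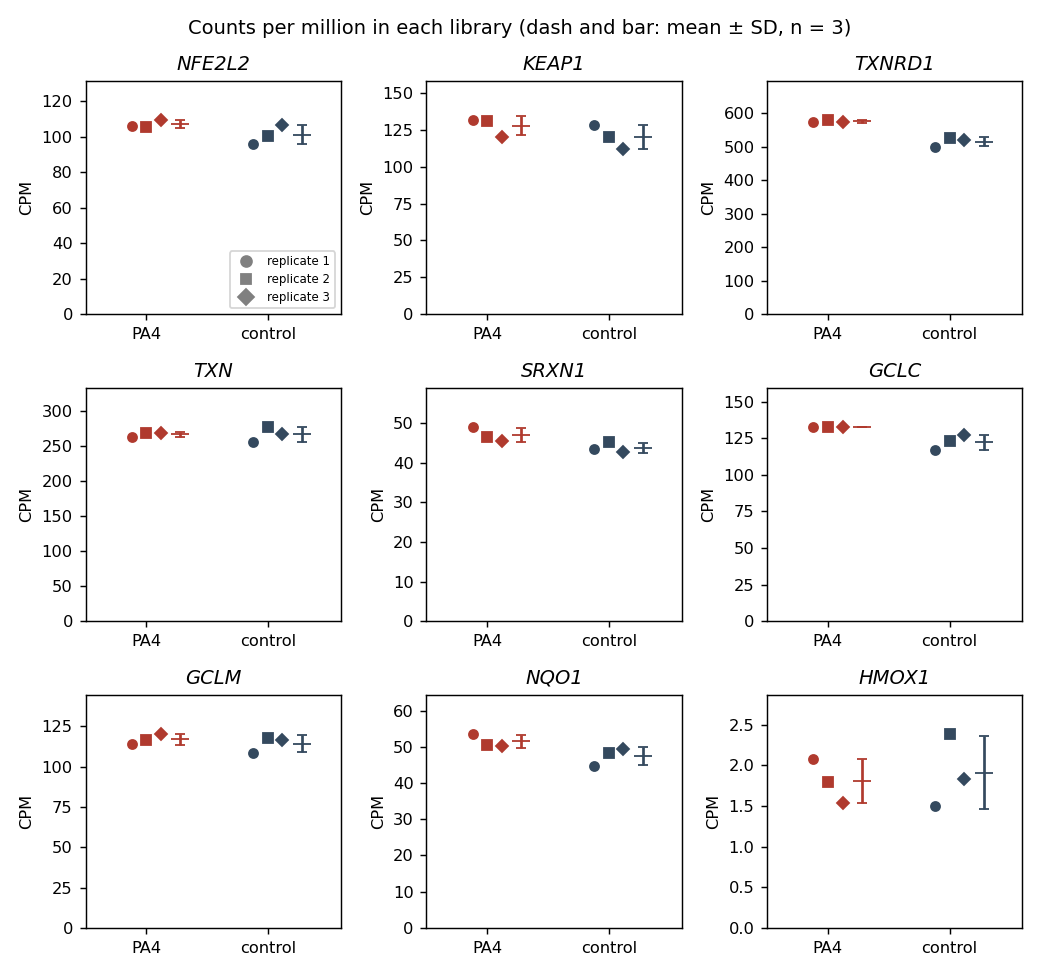
Level of each of the 9 genes in CPM (vertical axes, starting at 0) in the 3 PA4 libraries (left, red) and the 3 control libraries (right, blue), with symbols for replicate numbers and the mean ± SD (n = 3) beside them. The PA4 libraries of TXNRD1, at 572 to 580.0 CPM, lie above its control libraries, at 499.9 to 525 CPM, whereas those of TXN overlap.

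The genes of the regulators lie on the minus strands of chromosome 2, from 177230303 to 177264727 for NFE2L2, and of chromosome 19, from 10486125 to 10503356 for KEAP1 (RefSeq, GRCh38.p14). NFE2L2, which encodes NRF2, had 106, 105 and 109.5 CPM in the PA4 libraries, against 96.2, 101 and 107 CPM in the control libraries. Control replicate 3 lay above the lower 2 PA4 libraries, so the groups overlapped. NFE2L2 was at a log2 fold change of 0.080 ± 0.046 (SE), with a 95% interval of 0.989-fold to 1.13-fold and an edgeR adjusted p of 0.969. KEAP1, the substrate adaptor that holds NRF2 low, had 132, 131 and 120.2 CPM with PA4, against 129, 120.2 and 112 CPM in control. These groups overlapped as well, with control replicate 1 close to the highest PA4 libraries. Its log2 fold change was 0.087 ± 0.052 (SE), with an interval of 0.985-fold to 1.15-fold and an edgeR adjusted p of 0.977. NFE2L2 is regulated largely through the stability of its protein, which these RNA counts do not measure. The ratio of NFE2L2 to KEAP1, in RPKM (CPM per kilobase of gene model), averaged 0.679 ± 0.049 with PA4 and 0.684 ± 0.083 in control (SD, n = 3 each), a difference smaller than either spread.

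The thioredoxin system is represented by TXNRD1, TXN and SRXN1. TXNRD1 lies on chromosome 12 from 104215779 to 104350307 on the plus strand, TXN on chromosome 9 from 110243810 to 110256507 and SRXN1 on chromosome 20 from 646615 to 653200, both on the minus strand (RefSeq, GRCh38.p14). TXNRD1 had 572, 580.0 and 575 CPM in the PA4 libraries, against 499.9, 525 and 519 CPM in the control libraries. Every PA4 library was above every control library, and the PA4 libraries varied less among themselves. The mean was 575.9 ± 3.86 CPM with PA4 and 514.8 ± 13.3 CPM in control (SD, n = 3 each). The log2 fold change was 0.16 ± 0.03 (SE), or 1.12-fold with a 95% interval of 1.07-fold to 1.17-fold. The edgeR adjusted p was 0.0328, which ranked TXNRD1 23 of 12107 genes by p. In bulk RNA such as this, a change in the number of cells expressing a gene and a change in RNA per cell cannot be told apart.

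The TXNRD1 call rested on all but 2 of the libraries. It was lost without PA4 replicate 1, 2 or 3, at edgeR adjusted p-values of 0.260, 0.3755 and 0.206, and without control replicate 2, at 0.136. It was kept without control replicate 1, at 0.0115, and without control replicate 3, at 0.00781. The log2 fold change stayed between 0.14 and 0.18 in these 6 fits. DESeq2 and limma-voom also called TXNRD1, at adjusted p-values of 0.00277 and 0.0274, in tests that called 0.322% and 0.223% of all genes.

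TXN encodes cytosolic thioredoxin, the disulfide reductase that TXNRD1 keeps reduced. It had 263, 268 and 269 CPM with PA4, against 256, 278 and 268 CPM in control. Control libraries lay on both sides of the PA4 libraries. TXN was at -0.0019 ± 0.036 log2 (SE), with an edgeR adjusted p of 0.997, and its 95% interval of 0.947-fold to 1.05-fold lies below the lower bound of TXNRD1. The ratio of TXNRD1 to TXN, in RPKM, was 0.409, 0.407 and 0.403 in the PA4 libraries, against 0.368, 0.356 and 0.365 in the control libraries. The groups of this ratio did not overlap, and it was formed with the results for both genes known.

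SRXN1 encodes sulfiredoxin, which repairs peroxiredoxins that have been overoxidised. It had 49.2, 46.5 and 45.6 CPM with PA4, against 43.5, 45.2 and 42.7 CPM in control. The lowest PA4 library lay just above the highest control library. SRXN1 was at a log2 fold change of 0.10 ± 0.05 (SE), with an interval of 0.992-fold to 1.16-fold and an edgeR adjusted p of 0.963, and was not called.

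**Figure D2:**
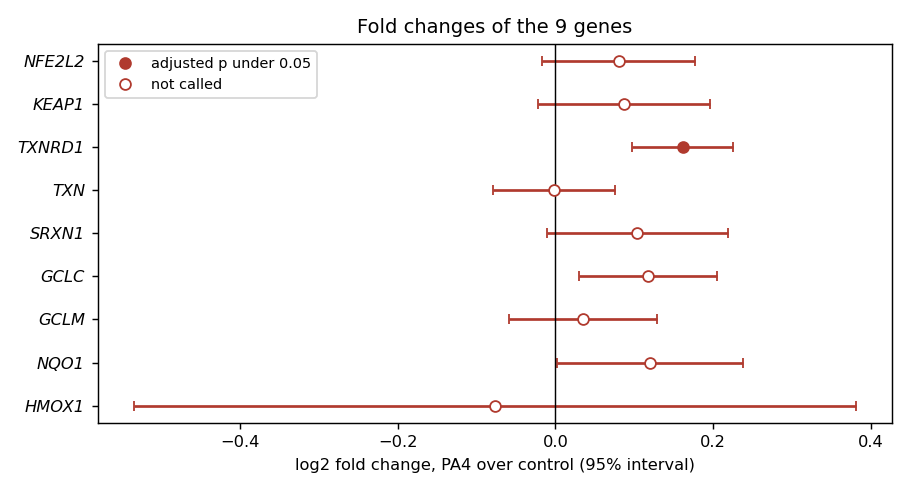
Fitted log2 fold change of PA4 over control for each of the 9 genes (horizontal axis), with 95% intervals from edgeR, ordered from the regulators at the top to heme oxygenase at the bottom. The filled point is TXNRD1 at 0.16, and the interval of HMOX1, from -0.53 to 0.38, is the widest.

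Glutathione synthesis starts with glutamate-cysteine ligase, made of the catalytic subunit GCLC and the modifier subunit GCLM. Both genes lie on minus strands, GCLC on chromosome 6 from 53497341 to 53545101 and GCLM on chromosome 1 from 93885199 to 93909430. GCLC had 133 CPM in each of the PA4 libraries after rounding, against 117, 123 and 127 CPM in the control libraries. All PA4 libraries were above the control libraries, with control replicate 1 the lowest. The means were 132.6 ± 0.151 CPM with PA4 and 122.2 ± 5.12 CPM in control (SD, n = 3 each). Its log2 fold change of 0.12 ± 0.04 (SE), or 1.08-fold with an interval of 1.02-fold to 1.15-fold, had an unadjusted p of 0.0113 and an edgeR adjusted p of 0.749. GCLC was called only where per-library offsets for transcript GC content were added, at an adjusted p of 0.0367, or 0.0258 with the replicate block as well.

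GCLM had 114, 117 and 121 CPM with PA4, against 108, 118 and 116 CPM in control, and the groups overlapped. Its log2 fold change was 0.035 ± 0.044 (SE), with an interval of 0.960-fold to 1.09-fold and an edgeR adjusted p of 0.993. The ratio of GCLC to GCLM, in RPKM, was 1.55, 1.50 and 1.46 in the PA4 libraries and 1.43, 1.38 and 1.44 in the control libraries. These values did not overlap, the closest being PA4 replicate 3 and control replicate 3. This ratio, too, was formed with the results for both genes known.

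NQO1 encodes a quinone reductase that uses NAD(P)H and is among the genes most often read as a marker of NRF2 activity. The gene lies on chromosome 16 from 69709401 to 69726560 on the minus strand. It had 53.7, 50.6 and 50.4 CPM with PA4, against 44.6, 48.2 and 49.5 CPM in control. The groups did not overlap, by a margin of less than 1 CPM. NQO1 was at a log2 fold change of 0.12 ± 0.06 (SE), or 1.09-fold with an interval of 1.00-fold to 1.18-fold, with an unadjusted p of 0.0472 and an edgeR adjusted p of 0.943.

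HMOX1 encodes heme oxygenase, which opens the heme ring to give biliverdin, iron and carbon monoxide and is strongly inducible in many cells. The gene lies on chromosome 22 from 35381096 to 35394207 on the plus strand. Here it was barely detected, with 42, 41 and 28 counts in the PA4 libraries and 29, 46 and 35 counts in the control libraries. The groups were fully mixed. Exact Poisson 95% intervals, which cover counting error only, ran from 18.6 to 40.5 counts for PA4 replicate 3 and from 33.7 to 61.4 counts for control replicate 2. HMOX1 was at a log2 fold change of -0.077 ± 0.216 (SE), with an interval of 0.690-fold to 1.30-fold and an edgeR adjusted p of 0.997, an interval that holds changes of 1.25-fold in either direction.

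Across the 9 genes, 7 fitted log2 fold changes were positive and the median was 0.087, against 47.6% positive and a median of -0.004 over all tested genes. In edgeR 1 of 9 was called, where 0.215% of all genes were called higher and 0.0165% lower. Before adjustment, p was under 0.05 for 3 of 9 genes in the upward and 0 in the downward direction, where 2.69% of all genes reached it upward and 2.6% downward. The 3 PA4 libraries lay above the 3 control libraries in 4 of 9, namely TXNRD1, SRXN1, GCLC and NQO1, and below them in 0, where the same held for 5.91% and 5.31% of all genes. These counts describe the 9 genes, whose choice was made with results known, and no test was made over them. The 95% interval of all 9 fold changes lay within 1.5-fold in both directions, and that of 8 within 1.25-fold, HMOX1 being the exception. Of all 12107 tested genes, 10543 had an interval within 1.5-fold and 8677 within 1.25-fold, so narrow intervals were common.

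The control libraries differed from one another in these genes. Control replicate 1 was the lowest control library in 7 of the 9 genes, whereas it was the lowest in 37.4% of all tested genes. Control replicate 3 was the lowest in the other 2, KEAP1 and SRXN1, and in 36.3% of all tested genes. The level of control replicate 1 relative to the other control libraries depended on transcript GC content. Its median log2 ratio to them was -0.086 over 3255 genes under 45% GC and 0.16 over 2140 genes at 55% GC or more. Only genes that averaged at least 10 CPM were counted for these medians. Of the members, 4 were under 45% GC, 3 lay from 45% to 55%, and KEAP1 and HMOX1 were above 60%. Without control replicate 1 the log2 fold changes of TXNRD1 and GCLC were 0.14 and 0.085, while that of KEAP1 was 0.14. The same fit gave 0.044 for NFE2L2 and 0.078 for NQO1. Without control replicate 3, KEAP1 was at 0.040 and NFE2L2 at 0.12, so that these uncalled values moved by more than 1.5 times with 1 control library. With the GC offsets, which gave 126 calls in all or 1.04% of genes, TXNRD1 was at 0.16, GCLC at 0.12 and KEAP1 at 0.11, the last with an edgeR adjusted p of 0.0989.

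**Figure D3:**
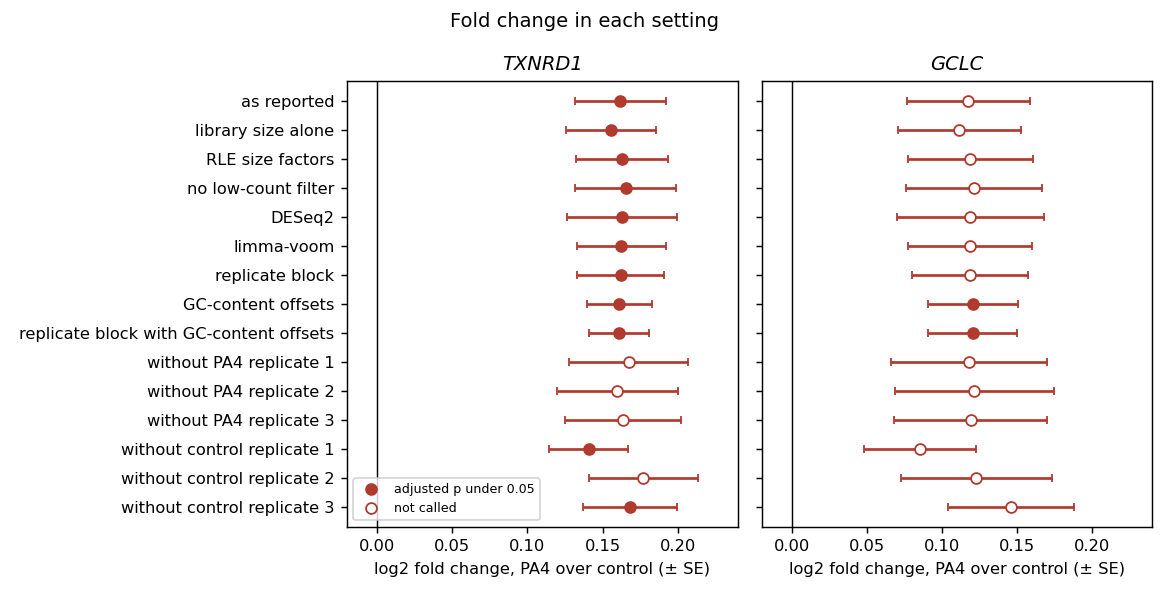
Log2 fold change of TXNRD1 (left) and GCLC (right), PA4 over control, with its SE, as reported and in 14 other settings listed down the page. Filled points have an adjusted p under 0.05, which TXNRD1 lost in 4 settings that leave out 1 library and GCLC reached in the 2 settings with GC offsets.

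Levels per length differed far more between the genes than between the groups. TXN was the most abundant at a mean of 307.5 RPKM over the 6 libraries, in the 98.7 percentile of tested genes, followed by TXNRD1 at 118 RPKM. KEAP1 stood at 45.9 RPKM, GCLC at 33.4, NFE2L2 at 31.2, GCLM at 22.9, NQO1 at 18.8 and SRXN1 at 16.9 RPKM. HMOX1 came last at 1.17 RPKM, in the 15.9 percentile. GCLC and NFE2L2 overlapped in their ranges over libraries, as did NQO1 and SRXN1, and the other neighbours in this order did not overlap. Gene model lengths ran from 868 bases for TXN to 5050 bases for GCLM.

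**Figure D4:**
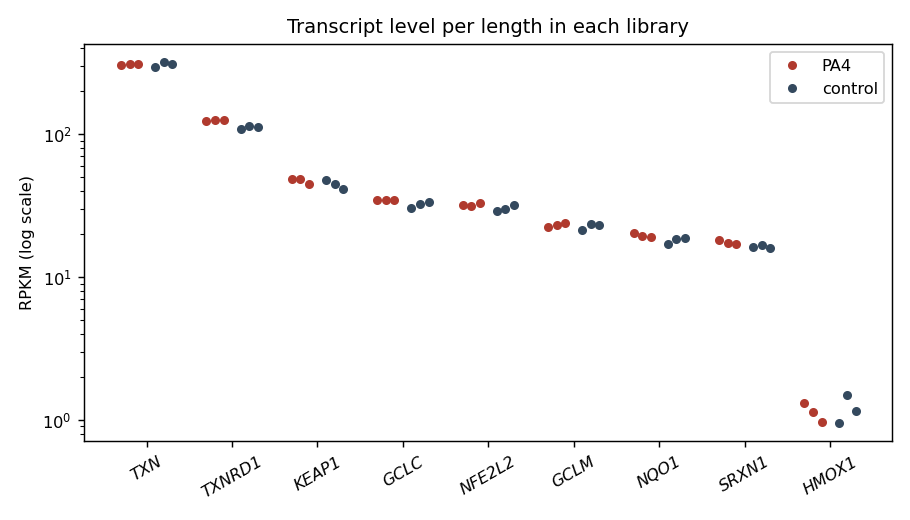
Level of each of the 9 genes in RPKM on a log axis, in the 3 PA4 libraries (red, left of each name) and the 3 control libraries (blue, right of each name), ordered by the mean over all 6 libraries. TXN at 307.5 and HMOX1 at 1.17 RPKM mark the ends, and the groups lie close together within each gene.

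Other genes of the same chemistry were read from 7 lists with 101 tested genes. By edgeR 0 of the 101 were called, and 7 had p under 0.05 before adjustment, all of them higher, where over all genes 0.231% were called and 2.69% reached that level upward and 2.6% downward. Of 9 tested enzymes that supply NADPH, the fuel of thioredoxin and glutathione reductases, 0 were called and 1 reached p under 0.05 before adjustment, upward, with a list median of 0.046 log2. The lowest p was that of IDH1, the cytosolic isocitrate dehydrogenase, which had 46.8, 45.6 and 44.1 CPM with PA4 and 37.0, 37.1 and 39.5 CPM in control. Its groups were well apart, at 0.26 ± 0.06 log2 (SE) and an edgeR adjusted p of 0.0829, and DESeq2 called it at an adjusted p of 0.0398 but limma-voom did not, at 0.0825. PGD, a pentose phosphate enzyme, was at 0.075 ± 0.036 log2 (SE). It was at 0.043 without control replicate 3 and at 0.094 without control replicate 1.

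In the list of quinone, heme and iron handling, 0 of 17 tested genes were called and 1 reached that unadjusted level, upward, with a list median of 0.0087 log2. FTH1, the ferritin heavy chain that stores iron, had 408, 412 and 401 CPM with PA4 and 371, 368 and 361 CPM in control. The groups did not overlap, the log2 fold change was 0.15 ± 0.03 (SE), and the adjusted p was 0.0649 by edgeR, 0.0605 by limma-voom and 0.0106 by DESeq2, the one tool of these that called it. Its partner FTL, the ferritin light chain, was at 0.043 ± 0.040 log2 (SE) with overlapping groups.

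Of 21 tested genes of glutathione synthesis, recycling and use, 0 were called and 1 reached that unadjusted level, upward, with a list median of -0.021 log2. SLC7A11 encodes the cystine transporter that feeds glutathione synthesis. It had 13.3, 15.0 and 16.3 CPM with PA4 and 10.9, 11.3 and 12.3 CPM in control, with no overlap. Its log2 fold change was 0.37 ± 0.09 (SE), or 1.29-fold, with an edgeR adjusted p of 0.247. GSR, the glutathione reductase, was at 0.055 ± 0.035 log2 (SE).

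Among 19 tested thioredoxins, peroxiredoxins, glutaredoxins and methionine sulfoxide reductases, 0 were called, 1 reached that unadjusted level, upward, and the median was 0.010 log2. TXNIP, which binds and inhibits thioredoxin, had 107, 107 and 112 CPM with PA4 and 96.7, 98.6 and 97.3 CPM in control. All PA4 libraries were above the control libraries, at 0.16 ± 0.04 log2 (SE) and an edgeR adjusted p of 0.272. With GC offsets TXNIP was called, at an edgeR adjusted p of 0.00833. TXNDC17, a thioredoxin-like protein, was at -0.13 ± 0.06 log2 (SE). It was at -0.071 without control replicate 1 and at -0.17 without control replicate 3.

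The partners and regulators of NRF2 and KEAP1 had 0 of 14 called, 3 that reached that unadjusted level, all upward, and a median of 0.0040 log2. MAFG, a small MAF protein that pairs with NRF2 on DNA, averaged 74.1 ± 2.62 CPM with PA4 and 65.9 ± 5.88 CPM in control (SD, n = 3 each), at 0.17 ± 0.06 log2 (SE) and an edgeR adjusted p of 0.749. MAFG was at 0.10 log2 without control replicate 3 and at 0.23 without control replicate 1. With GC offsets it was called, at an edgeR adjusted p of 0.0179. NFE2L1, a relative of NRF2 known for control of proteasome genes, was at 0.11 ± 0.05 log2 (SE) with overlapping groups. NFE2L1 was at 0.075 log2 without control replicate 3 and at 0.16 without control replicate 1. GC offsets called it as well, at an edgeR adjusted p of 0.0326.

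TXNRD1 needs selenocysteine, and one list joined factors that make or insert this amino acid, such as PSTK and EEFSEC, with other selenoproteins. Of its 16 tested genes, 0 were called and 0 had an unadjusted p under 0.05, and the median was -0.015 log2. The lowest p-values in that list belonged to the membrane selenoprotein SELENOK, at -0.11 ± 0.06 log2 (SE), and to SELENOF of the endoplasmic reticulum, at -0.060 ± 0.039 log2 (SE), which the table lists under the older names SELK and SEP15. All PA4 libraries of SELENOK, at 26.8 to 28.8 CPM, lay below its control libraries, at 29.1 to 30.5 CPM. In this list 1 gene was separated downward in this way and 2 upward. SELENOF was at -0.035 log2 without control replicate 3 and at -0.086 without control replicate 1. A list on superoxide and peroxide held SOD1, SOD2, CAT, the copper chaperone gene CCS and PARK7, a redox-sensitive protein gene. Of these 5 tested genes, 0 were called and 0 had an unadjusted p under 0.05, with SOD2, the mitochondrial superoxide dismutase, at 0.047 ± 0.036 log2 (SE) and the catalase gene CAT at 0.0065 ± 0.054 log2 (SE).

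**Figure D5:**
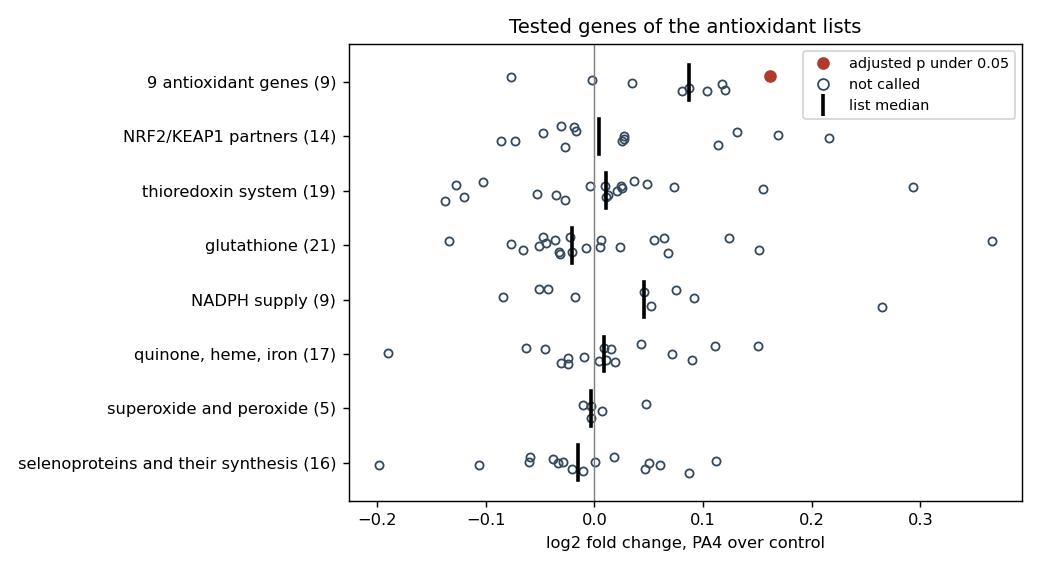
Log2 fold change of PA4 over control (horizontal axis) for the tested genes of the 9 members and of 7 further lists, with the number of tested genes in brackets and the list median as a black bar. Only TXNRD1, among the 9 members, is filled for an adjusted p under 0.05, and the point farthest to the right is SLC7A11 at 0.37.

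The 5 genes whose profile over the 6 libraries was closest to that of TXNRD1 were SNX25, CENPI, MRPS10, PON2 and ADIPOR2. Likeness was the mean absolute distance between log2 CPM values centred on each gene's mean, taken over 8563 genes averaging at least 10 CPM, and it was 0.015 for SNX25 and 0.021 for ADIPOR2. The choice by profile itself fixed their fold changes near that of TXNRD1, at 1.09-fold to 1.12-fold. None of the 5 was called, with edgeR adjusted p-values of 0.362 to 0.920. SNX25, a sorting nexin, had 22.0, 22.5 and 21.5 CPM with PA4 and 19.3, 20.2 and 19.7 CPM in control, far fewer reads than TXNRD1. ADIPOR2, an adiponectin receptor, had 238, 232 and 236 CPM with PA4 and 209.7, 218 and 219 CPM in control.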

How the data were processed

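The authors deposited raw counts of reads per gene, 1 column per library and not normalized, with gene model lengths. Trimmomatic 0.39, fastp 0.23.2, STAR 2.7.9a, featureCounts of Subread 1.6.4 and hg38 are named in the submitters' processing notes. The annotation, the strand setting and how multiply aligned reads were treated were not given in the sources used here. Only NFE2L2 shared exon bases with another listed gene, AGPS on the opposite strand, at 0.903% of its bases in GENCODE release 29.

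The test ran in edgeR 4.0.16 under R 4.3.3 (filterByExpr, TMM, glmQLFit, glmQLFTest, two-sided, no covariate, 6 libraries). P-values were adjusted by Benjamini-Hochberg over 12107 genes. DESeq2 1.42.0, limma-voom (limma 3.58.1) and other settings were alternatives, among them loess offsets (span 0.5) for the GC content of GENCODE transcripts, known for 94.47% of tested genes. CPM used TMM-scaled totals. SE came from the F statistic. No pair of libraries was alike within sampling noise (chi-square per degree of freedom 1.48 to 6.81). The highest value was that of control replicates 1 and 3, above those of PA4 against control libraries, at 2.5 to 5.29. Simulated data had 12107 genes, 200 of them changed (all at 10 CPM or more), spread evenly over 1.1-, 1.25-, 1.5- and 2-fold. This comparison recovered 16.4% of genes changed 1.1-fold, 82% changed 1.25-fold and 100% changed 1.5-fold, and 6.28% of calls were false. Noise was drawn separately for each gene, without shifts shared across genes, and more genes changed than the 28 called here. Recovery in the real data may therefore be lower.

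Members, lists and alternatives were chosen with earlier results of these data known. Named were all 9 members, called genes and the 2 lowest p-values (mean CPM of 5 or more) of each list, and 5 genes with profiles like TXNRD1.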

Additional observations from a re-analysis of the deposited data

How the results depend on the processing

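The reported test called 26 genes higher and 2 lower. The replicate block called 50 and 9, testing without a low-count filter 53 and 9, GC-content offsets 101 and 25, block and offsets together 133 and 45, and DESeq2 35 and 4. Fits that omit a single library called between 16 and 50 higher and between 1 and 24 lower. The number of members called was 1 higher, 2 with GC-content offsets or with both together, and 0 to 1 when a library was omitted, with 0 lower in each setting. The replicate numbers were not taken to pair the libraries, since the labels do not say that they do. Correlations between the deviations of libraries with equal numbers were 0.025, -0.0084 and 0.13. PA4 replicate 2 correlated best with control replicate 1, at 0.12. These correlations cannot decide whether libraries were paired, because deviations from a mean of 3 libraries depend on one another.

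NFE2L2, KEAP1, SRXN1 and NQO1 kept a positive log2 fold change and stayed uncalled in all 14 alternatives, and TXNRD1 and GCLC stayed positive. TXN, GCLM, HMOX1, FTL and CAT changed sign in some settings, without a call. TXN was at 0.0017 log2 with no low-count filter, 0.0066 with GC-content offsets and 0.0060 with block and offsets. When a library was omitted, TXN ranged from -0.032 to 0.027, GCLM from -0.0035 to 0.059, HMOX1 from -0.22 to 0.12, FTL from -0.0023 to 0.077 and CAT from -0.023 to 0.042. The cause was not tested. Of 392 gene and setting combinations, 29 gained a call, among them IDH1 in 7 settings, FTH1 in 6 and SLC7A11 in 4. Changes of about 1.1-fold were mostly missed in simulated data, which did not test levels as low as that of HMOX1.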
